A study of Mus musculus with 20 samples.

Results

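Chromatin accessibility was compared between ER-Hoxa9-Lys-GFP cells kept with E2 and the same cells 24 h after E2 had been washed out. ATAC-seq uses the transposase Tn5 to cut and tag open DNA, and stretches with many cuts are called as peaks. The members are all 55261 peaks of the 0 h list and all 62559 peaks of the 24 h list, 117820 of the 504887 peaks in the 10 lists of the series. They were taken by time point, and each peak was asked whether at least 1 bp of it was covered by a peak of the other list. A peak without such a counterpart is called 0 h-only or 24 h-only here, whatever the other 8 lists hold. Promoter peaks had their centre at most 1000 bp from the annotated transcription start site (TSS), and all others were called distal.

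Both groups were C57BL/6 cells grown in vitro in RPMI medium with serum and medium conditioned with stem cell factor (SCF), and both carried ER-Hoxa9 and Lys-GFP. The 0 h group had E2 in the medium, and the 24 h group had been washed with PBS and moved to medium without E2. The series further covers 4, 8, 12, 36, 48, 72, 96 and 120 h after withdrawal. Each time has 2 samples, made as separate transposition reactions on split nuclei per the labels' protocol, but 1 peak list. No spread between replicates can therefore be computed for any value below, and no test was possible. The Wilson 95% intervals given for shares cover counting error only, sequencing depth is unknown, and the deposited peak score is 0 for every peak, so peaks carry no height. Cells without E2 throughout, or cells without the fusion, were not analysed here, so the loss of E2, the wash and the day in culture cannot be told apart.

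HOXA9 is a homeodomain transcription factor that holds myeloid progenitors in an immature, dividing state, often together with its cofactor MEIS1. When it is fused to the hormone-binding domain of the estrogen receptor, the fusion is active while the ligand estradiol (E2) is present and inactive without it. Progenitors conditionally held this way are known to mature toward neutrophils after withdrawal, and GFP driven from the lysozyme locus marks that maturation. In neutrophil maturation C/EBP family factors act on primary granule genes first and on secondary granule genes later, and distal enhancers tend to be more cell-stage specific than promoters.

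Promoters on which the lists differed are shown here because the results return to them. Each line is the 250 bases before an annotated start, 5′ to 3′ on the gene's strand, from RefSeq (GRCm38.p6). Capitals mark matches to 3 of the motifs searched on both strands, namely C/EBP (TTGCNNAA), RUNX (TGTGGTT) and Meis (TGACAG). The first 3 windows held a 24 h peak and no 0 h peak. Lcn2 encodes lipocalin 2 and Ngp neutrophilic granule protein, both secondary granule proteins, and Retreg1 encodes a receptor for autophagy of the endoplasmic reticulum. The other 4 held a 0 h peak and no 24 h peak. Camp encodes cathelicidin, another secondary granule protein, Igll1 and Cd79a encode parts of the pre-B and B cell receptors, and Rag1 encodes a subunit of the V(D)J recombinase.
Lcn2: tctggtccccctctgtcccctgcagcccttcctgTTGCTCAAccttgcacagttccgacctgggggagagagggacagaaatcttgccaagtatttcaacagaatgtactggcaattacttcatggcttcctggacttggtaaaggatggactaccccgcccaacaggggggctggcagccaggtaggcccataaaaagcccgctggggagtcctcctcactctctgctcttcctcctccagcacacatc
Ngp: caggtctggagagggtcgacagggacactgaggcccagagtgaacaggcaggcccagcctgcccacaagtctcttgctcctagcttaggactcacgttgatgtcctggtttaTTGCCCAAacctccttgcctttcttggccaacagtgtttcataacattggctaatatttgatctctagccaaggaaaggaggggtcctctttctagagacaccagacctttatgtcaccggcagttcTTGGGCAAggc
Retreg1: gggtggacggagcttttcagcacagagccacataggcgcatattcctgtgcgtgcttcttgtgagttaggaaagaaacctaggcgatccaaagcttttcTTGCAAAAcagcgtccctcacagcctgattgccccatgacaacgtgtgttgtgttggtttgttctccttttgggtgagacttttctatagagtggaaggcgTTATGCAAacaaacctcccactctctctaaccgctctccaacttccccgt
Camp: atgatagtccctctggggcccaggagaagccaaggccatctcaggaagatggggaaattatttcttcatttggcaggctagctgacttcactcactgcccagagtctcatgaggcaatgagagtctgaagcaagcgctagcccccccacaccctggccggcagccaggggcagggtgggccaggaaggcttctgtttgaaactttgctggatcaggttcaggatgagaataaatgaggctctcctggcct
Igll1: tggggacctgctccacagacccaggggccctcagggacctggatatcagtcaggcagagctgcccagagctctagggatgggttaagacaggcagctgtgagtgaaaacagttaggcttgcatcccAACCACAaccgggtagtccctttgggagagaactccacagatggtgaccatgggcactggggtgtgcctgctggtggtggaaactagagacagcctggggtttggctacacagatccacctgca
Cd79a: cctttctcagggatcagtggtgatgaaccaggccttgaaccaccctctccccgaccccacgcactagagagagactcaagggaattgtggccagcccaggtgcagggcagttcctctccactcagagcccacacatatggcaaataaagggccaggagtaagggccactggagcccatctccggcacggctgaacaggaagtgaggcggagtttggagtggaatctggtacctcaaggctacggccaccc
Rag1: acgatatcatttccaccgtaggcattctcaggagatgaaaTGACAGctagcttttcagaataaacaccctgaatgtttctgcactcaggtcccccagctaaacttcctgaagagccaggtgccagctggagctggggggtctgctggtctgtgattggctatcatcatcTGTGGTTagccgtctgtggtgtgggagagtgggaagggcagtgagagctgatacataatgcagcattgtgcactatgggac

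The Lcn2 window lies at chr2:32387740-32387989 on the minus strand and holds a C/EBP match at -216, counting the base before the start as -1 and giving the match's leftmost printed base. It was overlapped in every list from 8 h on and in neither the 0 h nor the 4 h list. The Ngp window at chr9:110419558-110419807 on the plus strand, with C/EBP matches at -138 and -11, was overlapped in the 24 h list and in all 5 later lists, and in none before. The Retreg1 window at chr15:25940452-25940701 on the plus strand has C/EBP matches at -151 and -50. It was overlapped at 4 h and 12 h and at all times from 24 h on. These 3 windows were first listed at different times, and each was in every list from 24 h to 120 h.

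The Camp window at chr9:109849457-109849706 on the minus strand holds no match to the motifs searched and was overlapped in 9 of the 10 lists, the 24 h list being the exception. Igll1 at chr16:16863986-16864235 on the minus strand, with a RUNX match at -124, and Cd79a at chr7:24897247-24897496 on the plus strand were overlapped at 0, 4, 8 and 12 h and at no later time. Rag1 at chr2:101649533-101649782 on the minus strand, with a RUNX match at -81 and a Meis match at -210, was overlapped at 0, 4 and 8 h only. The 3 lymphoid promoters were thus absent from every list from 24 h on, that of Rag1 already at 12 h, while Camp was missing from a single list. The 7 promoters were chosen after their values were seen, and their motif matches do not represent the windows as a whole. The 0 h-only windows of Mcm3 and Clec4e also held C/EBP matches, and the 24 h-only windows of Sp3 and Slc22a4 held none. C/EBP matches lay in 8.28% of 0 h-only windows, 10.8% of 24 h-only windows and 10.8% of all windows.

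The question the comparison addresses is which chromatin opens and closes within the first day without E2. Most peaks were shared. Of the 0 h peaks, 10540 or 19.1% (18.7 to 19.4) had no 24 h peak. Of the 24 h peaks, 17571 or 28.1% (27.7 to 28.4) had no 0 h peak. The 24 h list was longer by peaks but the peaks were narrower: it covered 31.5 Mb with a median width of 436 bp, against 30.2 Mb and 474 bp at 0 h. Unshared peaks covered 5.02 Mb at 0 h and 7.37 Mb at 24 h. Lists of unequal length with nearly paired shared peaks must differ in these shares, the longer list having the larger one. Among peaks of at least 300 bp, set against all peaks of the other list, the shares were 16.9% at 0 h and 24.0% at 24 h. With no depth recorded, a larger number of open sites and a longer list from deeper or cleaner libraries cannot be told apart.

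Promoters differed less than distal sites. Of the 10607 promoter peaks at 0 h, 1158 (10.9%, 10.3 to 11.5) had no 24 h counterpart, against 9382 of 44654 distal peaks (21.0%, 20.6 to 21.4). Of the 11197 promoter peaks at 24 h, 1647 (14.7%) were 24 h-only, against 15924 of 51362 distal peaks (31.0%). The share was highest beyond 100 kb at both times. At 0 h it was 19.4% between 1 and 10 kb from the TSS, 20.9% between 10 and 100 kb and 25.1% beyond 100 kb, and at 24 h the values were 30.6%, 30.6% and 33.9%. By annotated feature, 20.7% of intergenic and 21.0% of intronic 0 h peaks were unshared, and 30.2% and 31.6% of those at 24 h, while peaks annotated to exons stood at 16.1% and 21.4%.

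**Figure D1:**
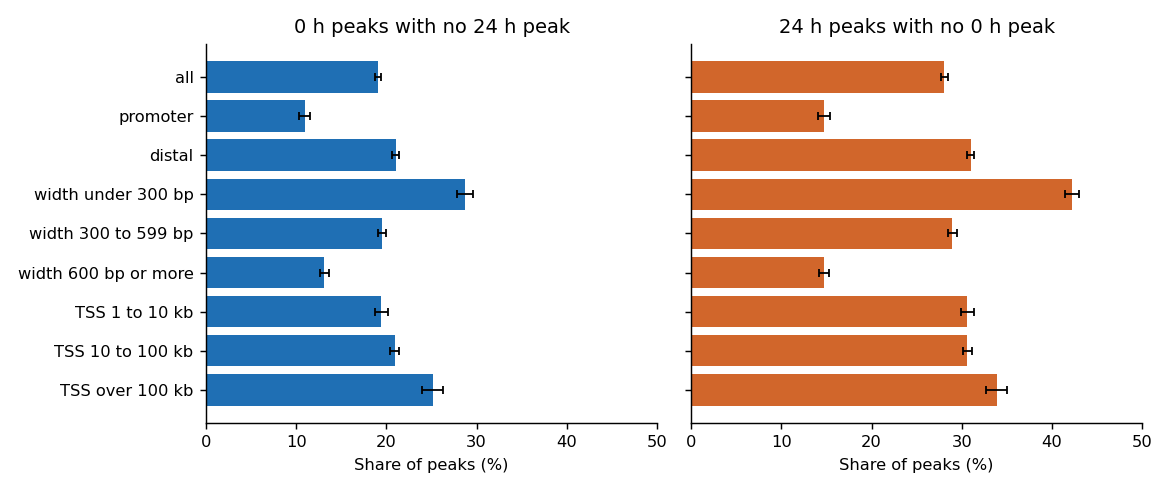
Share of peaks (%, horizontal axis) with no overlapping peak in the other list, for 0 h peaks (left) and 24 h peaks (right), by position, width and distance from the TSS. Bars are shares and whiskers Wilson 95% intervals, which cover counting error only; narrow peaks had the highest shares, 28.7% at 0 h and 42.2% at 24 h.

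The share without a counterpart also went down with width. Under 300 bp, 28.7% of 0 h peaks and 42.2% of 24 h peaks had no counterpart. At 600 bp or more the shares were 13.1% and 14.7%. Among these wide peaks promoters still stood below distal sites, at 8.90% against 16.4% in the 0 h list and 10.5% against 18.3% in the 24 h list. Among peaks under 300 bp the positions were close together, at 26.5% against 28.8% at 0 h and 38.7% against 42.5% at 24 h. The excess of 24 h-only over 0 h-only shares was therefore mostly one of narrow and middling peaks. Unshared peaks were seldom near misses: 4.88% of 0 h-only peaks had a 24 h peak within 250 bp, and 3.81% of 24 h-only peaks had a 0 h peak that near.

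The other 8 lists, which played no part in choosing the peaks, show how lasting each difference was. Distal 0 h-only peaks were overlapped in 59.9%, 53.3% and 46.9% of cases at 4, 8 and 12 h, then in 24.0%, 22.4%, 12.5%, 6.89% and 5.12% in the lists from 36 h to 120 h. Their shares were thus higher in each list before 24 h than in any list after it, though below those of shared 0 h peaks, which were overlapped in 88.1% of cases at 4 h and 87.3% at 36 h. Distal 24 h-only peaks went the other way at first, with 26.9%, 34.3% and 46.6% at 4, 8 and 12 h and 65.6% and 65.0% at 36 and 48 h. They then declined to 47.9%, 25.0% and 18.6% at 72, 96 and 120 h. The lists themselves shortened late, from 59562 peaks at 48 h to 23620 at 120 h, so a late absence is shared with much of the open chromatin.

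Promoter peaks showed a flatter course. Promoter 24 h-only peaks were overlapped in 51.7%, 54.5% and 56.4% of cases up to 12 h, in 70.7% and 67.8% in the next lists and in 53.4% at 120 h, so they too were highest just after 24 h. Promoter 0 h-only peaks were overlapped in 66.1%, 61.7% and 58.5% of cases up to 12 h, and still in 53.3%, 49.1% and 50.1% in the lists of 36, 72 and 120 h. Only 292 of the 1158 (25.2%) were in none of the lists from 36 h on, compared with 6121 of the 9382 distal ones (65.2%). In all other 8 lists, so missing at 24 h alone, were 112 promoter peaks (9.67%) and 97 distal peaks (1.03%), and these 112 had a median width of 963 bp. The mirror case, 24 h-only promoter peaks that every list but the 0 h list held, numbered 213 (12.9%), with a median width of 850 bp. Part of the promoter differences were thus absences of wide peaks from a single list. Such absences were a larger share of promoter than of distal differences in both directions, as 391 distal 24 h-only peaks (2.46%) were missing at 0 h alone.

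**Figure D2:**
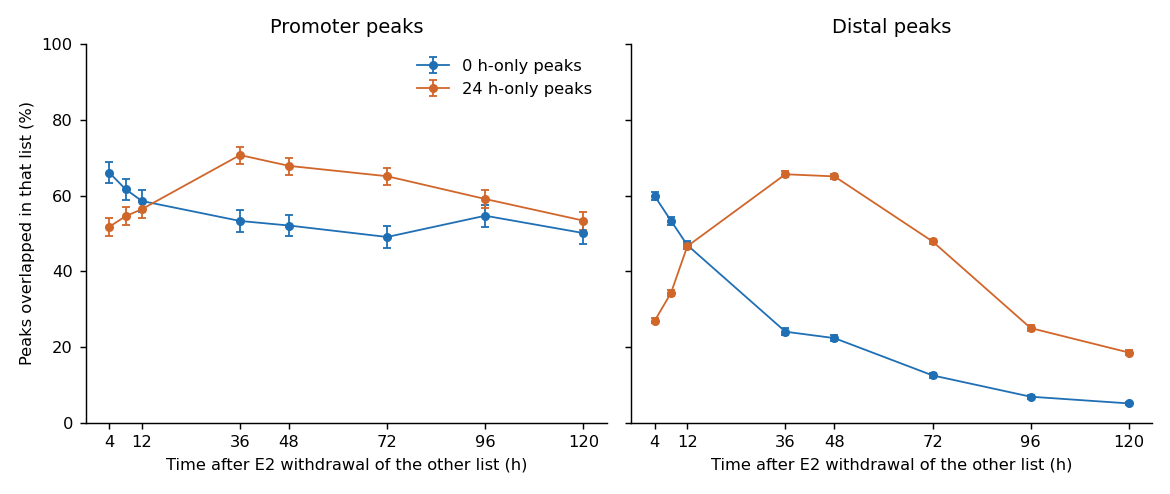
Share (%) of 0 h-only and 24 h-only peaks overlapped by at least 1 bp in each of the other 8 lists, placed by hours after E2 withdrawal, for promoter (left) and distal (right) peaks; whiskers are Wilson 95% intervals. Distal 0 h-only peaks dropped from 59.9% at 4 h to 5.12% at 120 h, whereas promoter ones stayed between 49.1% and 66.1%.

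Strict patterns pick out the peaks whose order in time was clean. Held by every list up to 12 h and by none from 24 h on were 1472 0 h-only peaks (14.0%), of which 1414 were distal and 58 promoter peaks. First listed at 24 h and in every later list were 665 24 h-only peaks (3.78%), 630 distal and 35 promoter. Listed at 24, 36 and 48 h and at neither 4 nor 8 h were 4678 (26.6%). A further group was short-lived or seen in 1 list: 1727 0 h-only peaks (16.4%) and 1736 24 h-only peaks (9.88%) appeared in no other list.

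Counted by gene, 18717 genes had at least 1 assigned peak at either time, each peak belonging to the gene with the nearest TSS as deposited. More peaks at 24 h than at 0 h were listed for 7360 genes (39.3%), fewer for 3659 (19.5%) and as many for 7698. At least 3 more were listed for 1139 genes (6.09% of the 18717) and at least 3 fewer for 243 (1.3%). Only the 9277 genes with 3 or more peaks in either list could reach that difference. The added peaks were mostly distal, as the 1139 genes together had 4114 more distal and 267 more promoter peaks. When the 24 h list was reduced to its widest 55261 peaks, as many as at 0 h, the counts were 620 higher and 558 lower. Equal list lengths bring the directions near balance by construction, so these counts say nothing of which peaks made the difference.

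The same genes were read in the 4 h and 36 h lists, which share no sample with the 0 h and 24 h lists. Of the 1139 genes with at least 3 more peaks at 24 h, 869 (76.3%) had more at 36 h than at 4 h and 123 (10.8%) had fewer. Of the 243 with at least 3 fewer, 170 (70.0%) had fewer at 36 h than at 4 h and 39 had more. Over all 18717 genes the shares were 35.0% more and 23.0% fewer. The groups were unlike in peak number. All genes had a median of 2 peaks at 0 h and 2 at 24 h, the 1139 genes 5 and 8, and the 243 genes 8 and 4. The part of peak number in these shares was not tested.

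Among the genes with most added peaks, Btg1, an antiproliferative gene of lymphoid and myeloid cells, had 6 assigned peaks with E2 and 16 without. Its counts in time order from 0 h were 6, 7, 11, 11, 16, 16, 16, 15, 11 and 7, so the high counts ran from 24 h to 72 h. All 12 of its 24 h-only peaks were intergenic, from chr10:96435143-96435456 upstream to chr10:96761482-96762308 downstream, while its promoter peak was in 8 lists but not at 24 h. Sp3, a zinc finger factor that binds GC boxes, had 9 peaks in the 0 h list and 19 in the 24 h list, with none of the 9 lost. Its counts at the other times were 14, 12 and 16 up to 12 h and 18, 16, 15, 12 and 9 from 36 h on.

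Mbnl1, an RNA-splicing regulator, had 13 peaks in the 0 h list and 24 in the 24 h list, and 16, 21 and 20 in the lists between. Of its 13 24 h-only peaks, 8 lay in its introns and 5 upstream, between chr3:60297358-60298248 and chr3:60620069-60620352. Rreb1, a zinc finger factor of Ras signalling, had 20 and 31, and Nedd9, an adhesion scaffold, 11 and 20. Cpeb2, a cytoplasmic polyadenylation factor, had 11 peaks in the 0 h list and 20 in the 24 h list, and 21, 20 and 21 at 36, 48 and 72 h. Of its 12 added peaks, 8 followed one another without a shared peak between them, from chr5:43125786 to chr5:43227945. These loci gained many separate distal peaks and no more than 1 promoter peak each, except Sp3 with 2.

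**Figure D3:**
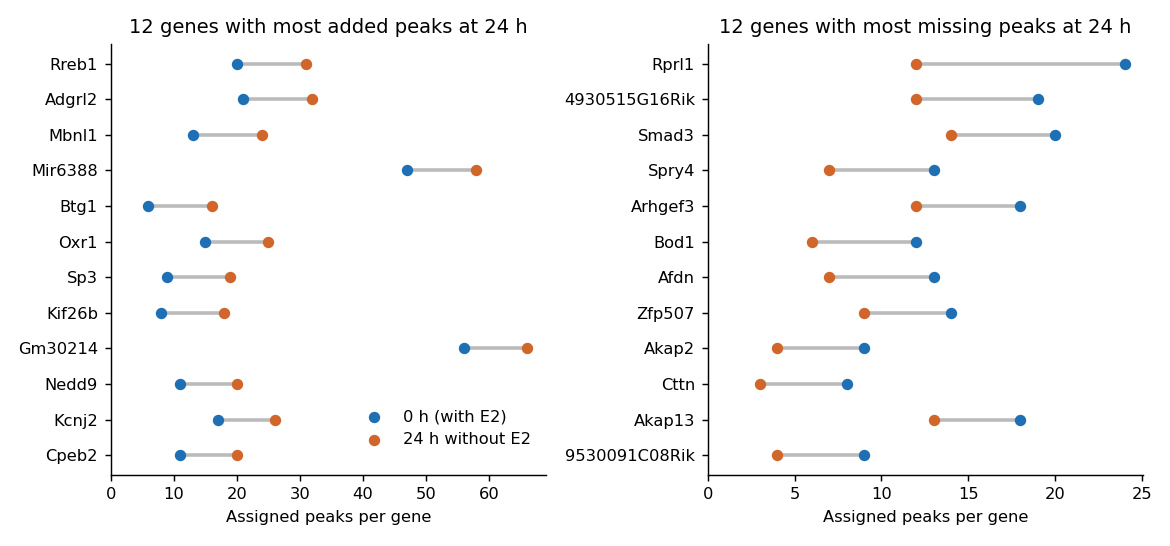
Assigned peaks per gene (horizontal axis) at 0 h (blue) and at 24 h without E2 (orange) for the 12 genes with most added and the 12 with most missing peaks, 1 list per time and no replicate spread. Btg1 went from 6 to 16 peaks and Rprl1 from 24 to 12.

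Of the 12 genes ranked by added peaks, 2 are names for antigen-receptor gene regions, where the nearest annotated start stands for many V segments. Mir6388, in the immunoglobulin heavy chain V region, had 47 peaks in the 0 h list and 58 in the 24 h list, and Gm30214, in the T cell receptor alpha V region, had 56 and 66. With the reduced 24 h list both had fewer peaks than at 0 h, by 1 for Mir6388 and by 8 for Gm30214. Related V segments can be similar in sequence, so reads may be shared among them and the counts are uncertain.

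Rprl1, in the immunoglobulin kappa V region, had most missing peaks. Its counts were 24, 20, 17, 15, 12, 10, 10, 5, 1 and 1 in time order, with 12 0 h-only peaks and no 24 h-only peak. In the same region 4930515G16Rik had 19 at 0 h and 12 at 24 h, but 11 at 4 h. Both names in the kappa region thus had fewer listed peaks at 24 h than at 0 h, and the region as a whole was not counted.

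Cttn, which encodes the actin-binding protein cortactin, had 8 peaks in the 0 h list and 3 in the 24 h list, and 7, 6 and 6 in the lists between. All 5 of its missing peaks were distal, and 4 were annotated to introns. Smad3, a transducer of TGF-beta signals, had 20 and 14, with 17, 17 and 15 between. Spry4, a feedback inhibitor of receptor tyrosine kinase signalling, had 13 and 7, including both of its promoter peaks, and 10, 8 and 8 between. Akap2, an anchor for protein kinase A, had 9 and 4, and 2, 1, 1, 0 and 0 from 36 h on. For these 4 genes the count in every list from 36 h on stayed below that at 0 h.

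At promoters, 8552 genes had a promoter peak at both times, 973 only at 0 h and 1310 only at 24 h. Retreg1 and Slc22a4, the ergothioneine transporter gene, went from 0 to 3 promoter peaks, and Acsl1, which activates long-chain fatty acids, from 0 to 2. Tifa, an adaptor of TRAF6 signalling, Ypel5 and Suox, the sulfite oxidase gene, went from 3 to 0. The Suox promoter was overlapped in all 9 lists but that at 24 h. For Tifa, 1 promoter window was seen at 0 h alone and another at 0, 8, 48, 72, 96 and 120 h. Ypel5 windows were also listed again later, 1 at 0, 8, 72, 96 and 120 h and another at 0, 48, 72, 96 and 120 h. The Acsl1 window was overlapped at 12, 24, 96 and 120 h, so not at 36, 48 or 72 h. Overlap of the 300-base window from 250 bases before to 50 after each start gave 1051 windows at 0 h only, 1348 at 24 h only, 9533 at both and 20885 at neither, of 32817.

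Base composition set open windows apart from closed ones more than it set the times apart. Median GC content was 60.3% in windows overlapped only at 0 h and also 60.3% in those overlapped only at 24 h, 61.0% in shared windows and 48.7% in those overlapped at neither time. C/EBP letters were found in 8.28% of 0 h-only windows, 10.8% of 24 h-only windows and 8.42% of shared ones, and in 10.8% of all windows. PU.1 letters (GAGGAAGT) were in 3.43%, 4.30% and 3.67%, and in 3.20% of all. GATA letters (AGATAA) were in 5.42%, 7.94% and 5.87%, and in 11.2% of all. RUNX letters were in 4.76%, 4.38% and 4.05%, and in 5.27% of all, and Meis letters in 17.5%, 15.9% and 16.8%, and in 19.2% of all. AP-1 letters (TGANTCA) were in 5.99%, 5.49% and 4.96%, and in 7.81% of all, and Hox letters (TGATTTAT) in 0.381%, 0.223% and 0.283%, and in 0.978% of all. C/EBP, GATA and PU.1 letters were thus in a larger share of 24 h-only than of 0 h-only windows and RUNX, Meis, AP-1 and Hox letters in a smaller one, while PU.1 letters were in a larger share of open windows of each kind than of all windows. These are counts of letters and do not show binding, and the differences were not tested. The distal peaks were not searched.

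The gene lists are to be read beside all 18717 genes, of which 39.3% had more peaks at 24 h, 19.5% fewer and 6.09% at least 3 more. For granule proteins, 8 of the 12 primary granule genes had more peaks at 24 h, none had fewer, and their sum was 55 at 0 h and 68 at 24 h. The lists not used for the choice gave sums of 50 at 4 h and 66 at 36 h. Ctsc, whose product activates the granule serine proteases, had 8 and 12 peaks, Mpo, the myeloperoxidase gene, 4 and 6, and Elane, the neutrophil elastase gene, 1 and 2. The added Elane peak at chr10:79883717-79884062 was also listed at 4, 8 and 12 h, so it was missing at 0 h alone among the early lists. With the reduced 24 h list the summed difference was 4 peaks instead of 13.

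Secondary and tertiary granule genes had more peaks in 10 of 17 and fewer in 3, with sums of 36 and 47. The 3 with fewer were Olfm4 with 3 and 1, Itgb2l with 2 and 1 and Camp with 1 and 0. Lcn2 had 0, 0, 1, 1 and 2 peaks at 0, 4, 8, 12 and 24 h and 2, 2, 2, 1 and 1 after that. Its promoter peak at 24 h was chr2:32387610-32388277 and another peak lay upstream at chr2:32389200-32389541. Ngp had 1 peak in each list up to 12 h and 3 at 24 h, among them the promoter peak chr9:110419366-110419928. At 36 h Ngp had 1 again, and 3, 2, 2 and 2 after that. Chil3, a chitinase-like protein of neutrophil precursors, had 1 and 3, and Arg2, a mitochondrial arginase, had none up to 12 h and 2 in every list from 24 h on. Ltf, the lactoferrin gene, had no assigned peak at either time.

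Receptors and adhesion molecules of neutrophils had more peaks in 19 of 28 genes (67.9%, against 39.3% of all genes) and fewer in 5 (17.9%, against 19.5%). At least 3 more were listed for 6 of the 28, against 6.09% of all genes. Of all 18717 genes, only 9277 had the 3 or more peaks in either list that such a difference needs. Itgal, C5ar1, Clec4e, Clec7a and Mcemp1 each had 1 peak fewer. The sum over the list was 102 at 0 h and 142 at 24 h, with 100, 120 and 124 between and 155 and 158 at 36 and 48 h. The difference of 40 peaks was 31 with the reduced list. Cxcr4, the receptor that retains myeloid cells in the marrow, had 17 and 25 peaks, and its counts over time were 17, 16, 16, 18, 25, 27, 24, 21, 17 and 12. The extra peaks lay on both sides of the gene, at chr1:128513198-128513711 and chr1:128724542-128725055 among others. Tlr2, a receptor for bacterial lipoproteins, had 6 and 11, Fcgr4, an IgG receptor, 3 and 7, and Il1r2, the decoy receptor for interleukin-1, 8 and 12. Itgam, which encodes CD11b, had 6 and 8, and Csf3r, the G-CSF receptor, 4 and 5, though Csf3r went from 1 promoter peak to 0.

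**Figure D4:**
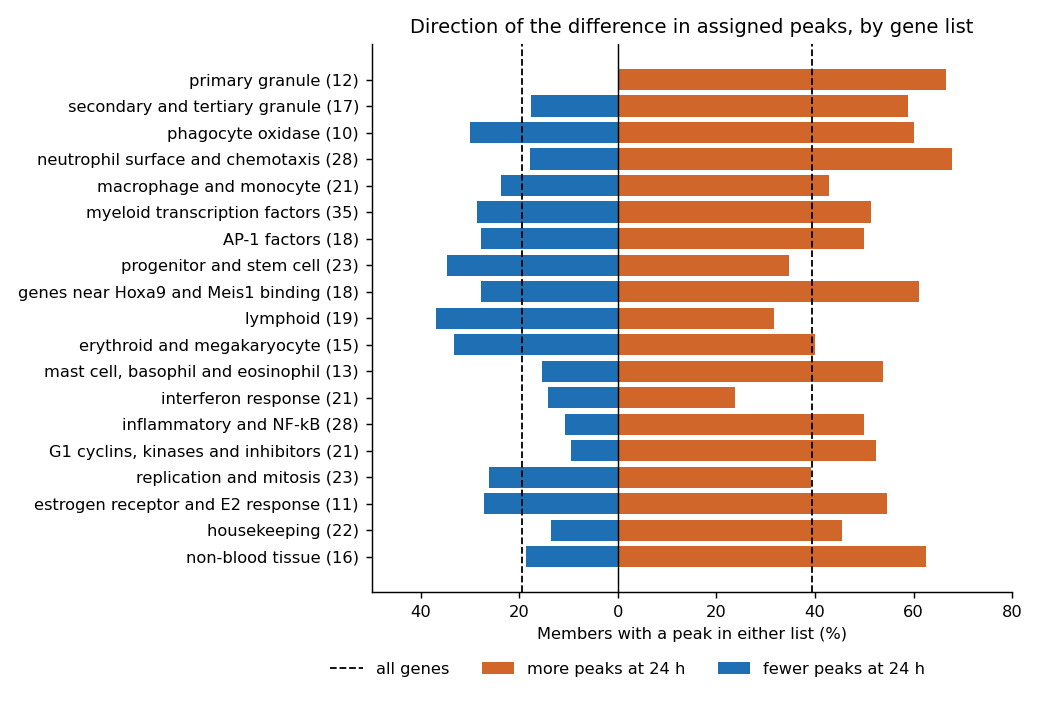
Share (%) of each list's members with more (orange, to the right) or fewer (blue, to the left) assigned peaks at 24 h than at 0 h; the number of members with a peak is in brackets and dashed lines are all genes, 39.3% and 19.5%. The primary granule list had no member with fewer peaks, and the lymphoid list had 6 members with more and 7 with fewer.

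Transcription factors of the myeloid lineage went both ways, with 18 of 35 having more peaks and 10 fewer. Spi1, which encodes PU.1, had 4 and 5 peaks, Cebpa 6 and 5, Gfi1 8 and 8 and Cebpe 5 and 5. The equal Cebpe counts hid an exchange, as 2 peaks were 0 h-only and 2 were 24 h-only. The 24 h-only ones were the promoter peak chr14:54711867-54713219, listed at 24 h and in all 5 later lists, and a peak at chr14:54706522-54706997, listed in all but the 0 h and 4 h lists. Cebpe encodes the C/EBP factor required for secondary granules. Klf7 had 6 and 12, Rxra, a retinoid receptor gene, 4 and 9, and Irf4 7 and 11. Irf8, which directs progenitors toward monocytes, had 18 at 0 h and 14 at 24 h, but 13 at 4 h and 16 at 36 h, so its counts did not follow time.

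Inflammatory genes had more peaks in 14 of 28 and fewer in 3, with a sum of 120 at 0 h and 146 at 24 h. Nfkbia, which encodes the inhibitor of NF-kB alpha, had 5 peaks in the 0 h list and 12 in the 24 h list, but already 10, 11 and 11 at 4, 8 and 12 h. Il1a, the interleukin-1 alpha gene, had 2 and 5, and 6 at 36 and 48 h. Among AP-1 and related factors 9 of 18 had more and 5 fewer. Batf had 8 and 12, Bach1 14 and 19 and Bach2 11 and 14, while Jdp2 had 12 and 7 and lacked its promoter peak at 24 h alone. Maff had no peak at 0 h, 2, 1 and 1 at 4, 8 and 12 h and 3 at 24 h. Its promoter peak was in every list from 24 h on and in none before, while both distal ones were already listed at 4 h.

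Progenitor genes had sums of 146 and 145. Of the 23 with a peak, 8 had more (34.8%, against 39.3% of all genes) and 8 fewer (34.8%, against 19.5%). Kit, the SCF receptor gene, had 11 and 15 peaks, with 4 0 h-only and 8 24 h-only. Erg, an ETS factor of stem cells, had 12 and 18. Ikzf2 had 15 and 10, and Myb, which sustains immature myeloid cells, 7 and 3. The 4 Myb peaks missing at 24 h were in its introns, and Myb had 8 peaks at 36 h and 7 at 48 h, so the low count was that of the 24 h list. Meis1 had 13 and 11 peaks, Flt3 6 and 5, Cd34 6 and 7 and Myc 2 and 3.

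Genes near which Hoxa9 and Meis1 bind had more peaks in 11 of 18 and fewer in 5, with a sum of 180 at 0 h and 191 at 24 h, and 12 h in place of 24 h gave 4 fewer than 0 h. Hoxa9 itself was assigned no peak at 0 h or 24 h, where each peak goes to the gene with the nearest TSS. The fusion was not checked. Lyz2, the lysozyme locus, had 3 peaks at both times with its promoter peak shared. A 0 h-only peak at chr10:117285439-117285918 and a 24 h-only peak at chr10:117284906-117285433 lay side by side there, and the latter was in all other lists.

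The estrogen receptor list had more peaks in 6 of 11 genes and fewer in 3, with sums of 39 and 52. Ncoa3, a steroid receptor coactivator gene, had 7 and 13 peaks, and Esr2, the estrogen receptor beta gene, 3 and 7. Greb1, a classic estrogen target, had 5 and 4. Among G1 regulators 11 of 21 had more and 2 fewer. Cdkn2b, which encodes the inhibitor p15, had 5 and 9 peaks, but 10 at 12 h, and Ccnd3, which encodes cyclin D3, had 8 and 11. Among replication genes 9 of 23 had more (39.1%, against 39.3% of all genes) and 6 fewer, and Cdc6, a replication licensing factor, had 2 and 5.

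Markers of other lineages also carried peaks. Macrophage genes had sums of 124 and 130, with Cd14, the lipopolysaccharide co-receptor gene, at 0 and 4 peaks and Maf at 29 and 24. Lymphoid genes had 63 and 65, with 6 of 19 more (31.6%, against 39.3% of all genes) and 7 fewer (36.8%, against 19.5%). Over these 19 the sums were 69, 71 and 75 at 4, 8 and 12 h and 54 at 36 h. Members with no peak at 0 h or 24 h were left out of these sums. Erythroid and megakaryocyte genes had 61 and 64, mast cell, basophil and eosinophil genes 36 and 42, and interferon response genes 56 and 57. Of the defining markers, Cd3e, Hba-a1, Fcer1a and Ms4a2 had no peak at either time, Pax5, Gata1 and Klf1 had 1 at both, and Csf1r had 4 at both. Their part in the results was not tested.

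Control lists were counted in the same way. Housekeeping genes had more peaks in 10 of 22 (45.5%) and fewer in 3 (13.6%), with sums of 86 and 97. Non-blood genes had more in 10 of 16 (62.5%) and fewer in 3 (18.8%), with sums of 38 and 44. Over all genes the shares were 39.3% and 19.5%. In all, 18 of the 19 lists had a higher sum at 24 h, and 9 did with the reduced 24 h list, in which the sum over all genes equals that at 0 h by construction. With it the housekeeping sum was 8 below that at 0 h, the myeloid factors and macrophage genes were each 7 below, the oxidase genes 1 below and the genes near Hoxa9 and Meis1 binding 5 below. The 9 that still had more were the neutrophil surface list by 31, the inflammatory list by 10, the estrogen receptor list by 7, both granule lists by 4, the mast cell list by 2, and the AP-1, G1 and non-blood lists by 1 each. Of the control lists, housekeeping genes thus turned and non-blood genes did not. Peaks of a bulk list do not tell whether a locus opened in all cells or in some of them.

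Peaks over repeats, as annotated in the lists, had larger unshared shares than other peaks at 24 h. Most such repeats derive from transposons, but the class also holds satellites, simple repeats (446 peaks at 24 h) and low-complexity stretches (207). Of 12614 24 h peaks at a repeat 37.9% were 24 h-only, against 25.6% of peaks at none and 28.8% of distal peaks at none. At 0 h the shares were 21.8%, 18.5% and 20.8%. The 24 h peaks at a repeat were narrower, with a median of 363 bp against 458 bp at none and 415 bp at none among distal peaks, and the part of width in the difference was not tested. The share was similar in several families. Among long terminal repeats (LTRs) of endogenous retroviruses, ERVK elements had 1080 peaks in the 0 h list and 1541 in the 24 h list, with 42.2% of the latter 24 h-only, ERVL-MaLR elements 2066 and 2792 with 40.1%, and the shares of ERV1 and ERVL elements were lower, at 36.6% and 33.2%. LINE-1 elements had 1218 and 1633 with 42.5%, Alu elements 42.8%, hAT-Charlie DNA transposons 43.8% and short B2 elements 33.3%.

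Among repeat types with at least 100 peaks in either list, MTC had the highest 24 h-only share. Lx9, a LINE-1 type, came next at 52.9% (43.4 to 62.2). MTC, an ERVL-MaLR type, had 55 peaks in the 0 h list and 128 in the 24 h list, and 71.1% (62.7 to 78.2) of the 128 were 24 h-only. Its counts in the other lists were 51, 81 and 88 up to 12 h and 149, 174, 157, 68 and 35 from 36 h on. RLTR45, an ERVK type, had 231 and 389, with 44.2% (39.4 to 49.2) 24 h-only and 6.06% of its 0 h peaks missing at 24 h. The RLTR45 counts were 266, 272 and 316 at 4, 8 and 12 h and 309, 293, 152, 87 and 76 later, so RLTR45 was highest at 24 h. None of its 24 h peaks was a promoter peak. The sources used here do not say how multiply aligned reads were handled, which bears on young repeats with similar copies.

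**Figure D5:**
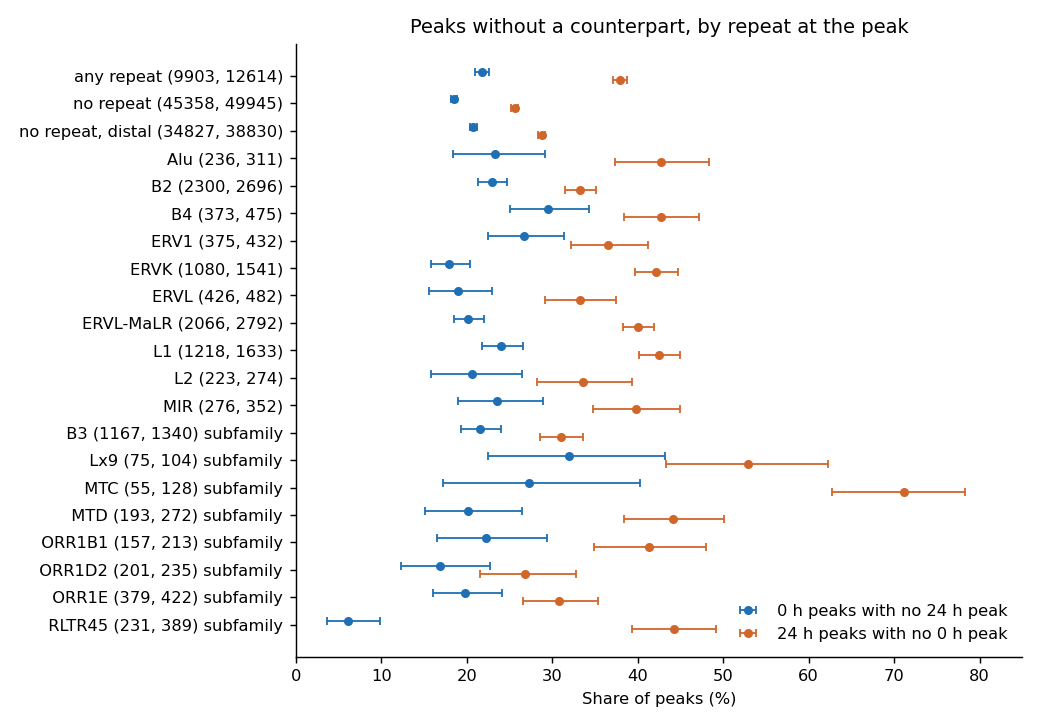
Share (%) of 0 h peaks without a 24 h peak (blue) and of 24 h peaks without a 0 h peak (orange) by the repeat annotated at the peak; peak numbers at 0 h and 24 h are in brackets and whiskers are Wilson 95% intervals. MTC reached 71.1% at 24 h, and RLTR45 stood at 6.06% at 0 h and 44.2% at 24 h.

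Unshared peaks also came in runs. Stretches of 5 or more consecutive 24 h peaks without a 0 h counterpart numbered 130, against 20 such stretches of 0 h peaks without a 24 h counterpart. The 2 longest 24 h stretches held 10 peaks each, at chr16:64941617-65251276 by Cggbp1 and Htr1f and at chr6:92286566-93771591 by Trh, Prickle2 and Magi1. Kif26b held 8 within chr1:178765672-179011241. At 0 h the longest held 7 peaks, and Jdp2 held 5 within chr12:85589509-85626477. Runs are more frequent where a larger share of the list is unshared, as at 24 h. By chromosome the share of 0 h-only peaks lay between 17.1% (X) and 20.6% (18), and that of 24 h-only peaks between 26.2% (7) and 31.2% (18), leaving out Y with 35 peaks at 24 h. The 24 h share was thus above the 0 h share on each of these chromosomes.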

How the data were processed

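ATAC-seq peak lists of cultured mouse cells at 0 h and 24 h after E2 withdrawal were compared, with 8 further time points for description. Per the file headers, the authors annotated each list with HOMER against mm10. The submitters' processing notes name BWA, MACS2 2.0, STAR 2.5 and mm9, without roles, and the sources used here do not say how the 2 samples of a time were combined into 1 list. The deposited peak score is 0 throughout and was not used. Coordinates, the distance to the TSS, the assigned gene and the annotation were used as deposited.

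Overlaps of at least 1 bp, promoter classes (1000 bp), peaks per gene, repeats and runs were computed in Python 3.11.15 with pandas 2.3.3 and numpy 2.4.6. Wilson 95% intervals cover counting error only. Peak overlap and gene counting were tested on simulated data, 20000 regions and 6000 genes, and 100% were recovered. Each list stands for 2 samples that may be technical replicates, so no p-value was computed.

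Genes named were the 12 with most added and the 12 with most missing peaks, the 6 with most added and the 6 with most missing promoter peaks, up to 4 members per gene list with the largest difference, and 18 fixed genes, among them Lyz2, Hoxa9, Spi1, Cebpa and Myb. Camp, Cd79a, Rag1, Ltf, Greb1, Maff, Htr1f and the marker genes at equal counts were named after their values were seen, as were the repeat types and runs. The members, the 19 gene lists (381 symbols, 356 with a peak) and the named-gene rule were chosen with earlier results of these data known. Promoter sequences are from RefSeq (GRCm38.p6). Of 418 named or listed genes, 316 had a window. The alternatives varied the overlap, promoter distance, list length, peak width, gene window, threshold and the time used.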

Additional observations from a re-analysis of the deposited data

How the results depend on the processing

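No paired analysis was possible because each time point has 1 peak list and no column carries a replicate, and leaving out each replicate was not run for the same reason. The share of 0 h peaks without a counterpart is given first over all, then over promoter, then over distal peaks, followed by the same 3 shares for 24 h peaks. Counting peaks within 250 bp as shared gave 18.1%, 9.59% and 20.2%, and 27.0%, 12.9% and 30.1%. Reducing the 24 h list to its widest 55261 peaks gave 26.0%, 13.5% and 28.9%, and 25.6%, 13.2% and 28.6%, near each other because lists of equal length must give similar shares. Describing only peaks of at least 300 bp gave 16.9%, 9.97% and 18.9%, and 24.0%, 12.6% and 27.0%. The 4 h list in place of 0 h gave 18.7%, 11.6% and 20.4%, and 28.5% over all and 15.4% over promoter peaks of the 24 h list. The 12 h list in place of 24 h gave 17.8%, 12.5% and 19.1%, and 21.2%, 12.3% and 23.2%. The 36 h list gave 24.1%, 11.7% and 27.1%, and 29.0% over all and 32.2% over distal peaks. With promoters within 500 bp the promoter shares were 9.71% and 12.6%, and within 2000 bp 12.1% and 17.3%. Requiring 50% of the shorter peak, or autosomes alone, moved no share beyond its interval.

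Genes with at least 3 more peaks numbered 620 with the reduced list and 509 with 12 h, and genes with at least 3 fewer 558 with the reduced list and 469 with 36 h. Thresholds of 2 and 5 peaks gave 2748 and 234 more, and 890 and 30 fewer. Lists with a higher sum at 24 h numbered 9 of 19 with the reduced list. It turned the summed difference to -1 for oxidase, -7 for macrophage, -7 for myeloid factor, -5 for Hoxa9 and Meis1, -7 for lymphoid, -5 for erythroid, -4 for interferon, -3 for replication and -8 for housekeeping genes, and the difference to -8 for Gm30214 and -1 for Mir6388. The 12 h list gave -7 for macrophage, -3 for AP-1, -4 for Hoxa9 and Meis1 and 7 for progenitor genes, -3 for Bach1, -4 for Mir6388 and -2 for Nfkb1. The 36 h list gave 12 for progenitor, -8 for lymphoid, -1 for erythroid and -3 for interferon genes, -1 for Bach2, -2 for Ikzf1 and 1 for Myb. The 4 h list gave 1 for progenitor and -5 for lymphoid genes, 1 for 4930515G16Rik and 1 for Irf8, and peaks within 100 kb gave 3 for progenitor genes. Of 61 named genes with a difference of at least 3 peaks, between 53 (4 h) and 60 (distal peaks, or within 100 kb) kept their direction under the 6 settings counted. The causes were not tested.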
